A study of Mus musculus with 38 samples.

Results

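The translation initiation factor genes are the protein-coding genes whose symbol begins with Eif, with Eif4g1, Eif4g2 and Eif4g3 left out, and 52 of the 22443 genes in the count files met that rule. They were counted through the longest transcript of each gene, in the coding sequence (CDS) and in the 5′ UTR, in all 38 libraries of the 14 groups. The study joined proximity labelling to ribosome profiling (PL-Ribo-seq) in primary cortical neurons cultured from CD-1 mouse embryos. A lentivirus with a doxycycline-inducible biotin ligase was expressed in every culture, either TurboID-PSD95, which labels proteins around the postsynaptic scaffold PSD95 in dendrites, or Pan-TurboID, which carries no localization signal and labels the whole neuron. Ribosomes with biotinylated protein were pulled down on streptavidin from the monosome fraction, and footprints were sequenced from the pulldown (pd) and from an input (in) of the same fraction. The question was which messages are translated in dendrites, and how depolarization alters their translation.

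The libraries came from 3 experiments. The KCl experiment held 24 libraries, with resting neurons and neurons depolarized with 55 mM KCl for 1 h, each with TurboID-PSD95 or Pan-TurboID, and each as input and pulldown, with 3 libraries per group. The depolarized cultures had tetrodotoxin and DL-AP5 before KCl, and again in the fresh medium of the 30 min after it. The DHPG experiment held 3 inputs and 3 pulldowns from TurboID-PSD95 neurons given 100 µM of the group I metabotropic glutamate receptor agonist DHPG for 10 min. Per the methods, these cultures too had tetrodotoxin and DL-AP5 first. They were then washed and kept in regular medium before DHPG, and had fresh medium after it. In the knockdown experiment, neurons with TurboID-PSD95 had received 20 nM of siRNA against eIF4G2 for 72 h, and its 8 libraries were resting or depolarized, as inputs and pulldowns with 2 libraries per group. The labels name the PSD95 virus for all DHPG and knockdown libraries, but their descriptions call the DHPG inputs and all knockdown libraries cytosol, the word used for Pan-TurboID in the KCl experiment. The virus was followed here, and this conflict bears on every knockdown pulldown. All cultures were given biotin and cycloheximide. Resting neurons were not part of the DHPG experiment as analysed here, and non-targeting siRNA controls were not analysed here. Comparisons with resting or unsilenced neurons therefore crossed experiments, in which treatment and experiment cannot be told apart. No RNA-seq was used, so that a change in the amount of an mRNA and a change in its translation cannot be told apart, and in bulk samples fewer cells of a type and less RNA per cell cannot be told apart either.

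Cap-dependent initiation begins when eIF4E binds the 5′ cap and, with the helicase eIF4A and a scaffold, recruits the mRNA. The small ribosomal subunit arrives with eIF1, eIF1A, eIF3, eIF5 and the ternary complex of eIF2, GTP and initiator tRNA, and scans the 5′ UTR for a start codon. eIF1 and eIF1A keep the scanning complex open, eIF5 promotes GTP hydrolysis by eIF2, eIF5B joins the large subunit, and eIF2B recharges eIF2 with GTP. The eIF2 kinases phosphorylate eIF2 under stress and so slow initiation, and the 4E-BPs hold eIF4E away from its scaffold. In neurons both arms are known for control of synaptic plasticity. Several of these genes are themselves regulated at initiation. The mRNA of Eif1 carries its start codon in a poor context and that of Eif5 an upstream ATG in a poor context, and the mRNAs of some eIF3 subunits and of Eif4b begin with a terminal oligopyrimidine (TOP) stretch that is read by the mTOR pathway.

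The libraries held 5906281 to 35643247 counts in all, of which 9164 to 74823 per library fell in the CDS of the 52 genes. Values below are normalised CPM of the CDS (TMM-scaled) unless a level per length is named. Summed neuron markers lay at 5746 to 11673 CPM in every library, astrocyte markers at 236 to 1460, oligodendrocyte lineage markers at 30.7 to 574 and microglia markers at 0 to 25.7. The targeted gene Eif4g2 was at 280.0, 280.1, 332 and 320.3 CPM in the 4 knockdown inputs and between 510.4 and 744 CPM in the 6 TurboID-PSD95 inputs without siRNA, a log2 fold change of −0.94 (SE 0.13, edgeR quasi-likelihood adjusted p = 4.08e-05, across experiments). All 12 immediate early genes of a fixed list rose after KCl in each of the 5 KCl comparisons. Adjusted p-values below come from the quasi-likelihood test of edgeR and were adjusted over all genes tested by the Benjamini-Hochberg method, and a gene was called at an adjusted p under 0.05. They measure the spread between the libraries of a group.

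The start codon regions of the genes on which the results turn are given here as 27 bases of the mm10 (GRCm38) sense strand, with the 3 bases before the ATG, the ATG and the base after it in capitals. A purine at the first capital and a G at the last mark a strong start context.
Eif1 (chr11:100320115-100320141, plus strand): aaggaatcgtatCGTATGTccgctatc
Eif1b (chr9:120492796-120492822, plus strand): tcacactagtgtCGCATGTccactatc
Eif5 (chr12:111539601-111539627, plus strand): cactaataagccAAAATGTctgtcaac
Eif5b (chr1:37998275-37998301, plus strand): cgccgttgacaaGCGATGGggaagaaa
Eif2ak3 (chr6:70844711-70844737, plus strand): tggggcgggccgCTGATGGagcgcgcc
Eif3f (chr7:108934417-108934443, plus strand): ctctttctcggcAAGATGGcttctccg
Eif4a3 (chr11:119299985-119300011, minus strand): tgcggaatccggATCATGGcggctaac
Eif4enif1 (chr11:3203643-3203669, plus strand): gtacaccaagaaGCCATGGagaaaagt
Eif2d (chr1:131153355-131153381, plus strand): gctactccagcaGACATGTtcgctaag

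Eif1 and its paralogue Eif1b both had C in place of the purine and T in place of the G. Neither letter was present in 5 of 52 initiation factor genes (9.62%), namely Eif1, Eif1b, Eif3b, Eif2ak4 and Eif4e1b, against 7.63% of 20392 genes. An ATG upstream of the start codon was present in 17 of the 52 (32.7%) against 56.3% of all genes, and the median 5′ UTR was 129.5 nt against 179 nt. Eif5 held 5 such ATGs in its longest transcript. The one at base 397 of its 5′ UTR opened a frame of 97 codons that ran past the main start codon in another frame, and Eif1 held 1, at base 22, with a frame of 6 codons. They are shown with the upstream ATG in capitals. That of Eif1 lies in the longest transcript, which was the one counted. The annotated Eif1 start searched below for a TOP stretch lies further 3′, within chr11:100319944-100319963, and mRNA from that start lacks this ATG. Likewise, the annotated Eif5 start searched there lies within chr12:111538096-111538115, and mRNA from it lacks the intact Eif5 upstream ATG at base 84.
Eif5 upstream ATG (chr12:111538515-111538541, plus strand): cgcgttgggtttATGtctttatttgac
Eif1 upstream ATG (chr11:100319894-100319920, plus strand): gagcttgactccATGggtggggccgag
A C followed by 4 pyrimidines, the form of a TOP stretch, was searched on the sense strand at annotated transcript starts. It stood exactly at the start in 2 of 41 matched initiation factor genes (4.88%), Eif3f and Eif2s3x, against 3.01% of 27025 genes, and within 5 bases of it in 12 of 41 (29.3%) against 21.2%. The Eif3f start is shown with the pyrimidine run in capitals, and its 5′ UTR is 15 nt long.
Eif3f transcript start (chr7:108934410-108934429, plus strand): gctctCTCTCTTTCTCggca

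Footprint levels of the initiation factors spanned from near 0 to the top percentile of all genes in resting inputs. Levels in this paragraph are CDS CPM per kb of CDS, as mean ± SD over the 6 resting inputs of both baits. The median of the 52 genes was 64.0, against 11.9 over the 16006 genes with a count. Eif4h, a cofactor of the eIF4A helicase, was highest at 584 ± 109.5, followed by Eif5a, which promotes elongation and termination, at 439 ± 44.7, and by the helicase Eif4a2 at 271 ± 45.0. The lowest were Eif4e1b at 0, Eif4ebp3 at 1.26 ± 1.65 and the double-stranded RNA-activated kinase Eif2ak2 at 2.06 ± 1.19. Within eIF3, the scaffold of the preinitiation complex, Eif3i, Eif3h and Eif3c stood at 248, 221 and 213 and Eif3j1 and Eif3j2 at 32.5 and 22.5. The eIF2B subunits lay close together between 23.6 for Eif2b3 and 61.3 for Eif2b5, and the eIF2 kinases lay below nearly all others, with Eif2ak1 at 17.9, Eif2ak3 at 8.16 and Eif2ak4 at 3.49. The cap-binding protein Eif4e was at 28.4, below its inhibitors Eif4ebp1 at 70.7 and Eif4ebp2 at 66.8. Of the 28-base stretches of the Eif4e CDS, 80.5% recurred in other annotated genes or pseudogenes, against 18.96% for Eif4ebp1 and none for Eif4ebp2, and the treatment of reads with several matches was not given. Of the TOP genes, Eif3f was at 192, Eif4b at 125 and Eif3e at 77.8.

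**Figure D1:**
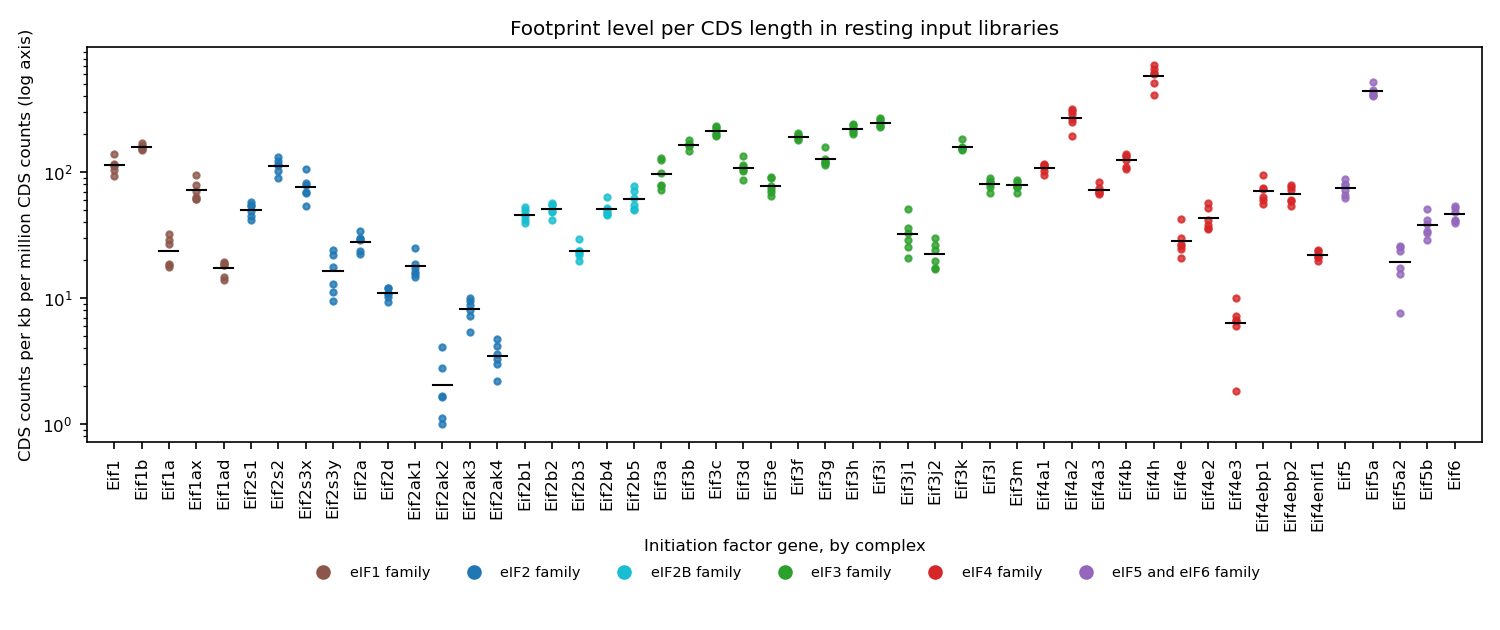
Footprint level of each initiation factor gene in the 6 resting input libraries, as CDS CPM per kb of CDS on a log axis, ordered by complex and coloured by family. Points are libraries and bars are means, and the 50 genes with a count in all 6 libraries are shown. Eif4h and Eif5a stand at the top and Eif2ak2 and Eif2ak4 at the bottom.

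Counted footprint levels differed between paralogues. The neuronal helicase Eif4a2 stood above Eif4a1 in every group of inputs, with a ratio of levels per length of 2.25 in resting Pan-TurboID inputs and 2.72 in resting TurboID-PSD95 inputs, against 1.78 and 2.03 in the depolarized inputs. Single depolarized inputs ranged from 1.18 to 3.35 and single resting inputs from 2.03 to 2.97, so that the conditions overlapped. Eif5a exceeded Eif5a2 by 21 to 42 times. In the KCl experiment Eif1b exceeded Eif1 by 1.36 and 1.45 times in resting inputs and by 1.83 and 1.87 times in depolarized inputs. The ratio was 4.58 in DHPG inputs, 3.79 in resting knockdown inputs and 7.88 in depolarized knockdown inputs. The X-linked Eif2s3x exceeded its Y-linked copy Eif2s3y by 3.0 to 7.0 times, and Eif3j1 and Eif3j2 differed by 0.85 to 1.5 times. These ratios are limited by sequence shared with other genes, because the treatment of reads with several matches was not given in the sources used here. All 28-base stretches of the Eif3j1 and Eif3j2 CDS, 99.2% of those of Eif4a1, 98.1% of those of Eif1, 95.0% of those of Eif2s3x and 85.1% of those of Eif2s2 recurred in other annotated genes or pseudogenes, against 2.22% for Eif1b, 1.23% for Eif3f, 3.37% for Eif5b, 2.19% for Eif2d and none for Eif2ak3, Eif4enif1, Eif3a and Eif3l. Eif1ad3 was not matched by its symbol and has no value here.

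The dendritic comparison set the resting pulldowns by TurboID-PSD95 against the mean over the inputs of either bait. Among 50 initiation factor genes tested, 3 were higher and 13 lower in the pulldown, which is 32% of them, where 31.2% of all 13005 genes tested were called, 14.7% higher and 16.4% lower. Their median log2 fold change was −0.30 against −0.04 over all genes. The higher ones were Eif5b, the GTPase of subunit joining, the eIF3 subunit Eif3l and the amino acid-sensing eIF2 kinase Eif2ak4 (log2 fold change 0.98, adjusted p = 0.00582).

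Eif5b was at 346, 208 and 637 CPM in the 3 pulldowns and at 107 at the lowest, 125 at the median and 182 at the highest of the 6 inputs. All pulldowns lay above all inputs, with a log2 fold change of 1.55 (SE 0.27, adjusted p = 0.000561). Eif3l was at 218, 213 and 254 CPM in the pulldowns and at 115, 135 and 145 in the inputs (lowest, median, highest), a log2 fold change of 0.77 (SE 0.18, adjusted p = 0.00336). The groups did not overlap. At the other end, the start codon guardian Eif1 was at 8.60, 22.3 and 9.27 CPM in the pulldowns and at 29.6, 38.3 and 48.0 in the inputs, a log2 fold change of −1.48 (SE 0.32, adjusted p = 0.00189). The eIF2 subunit Eif2s2 was at 41.9, 57.6 and 59.1 CPM against 83.9, 113 and 130.4, a log2 fold change of −1.04 (SE 0.24, adjusted p = 0.00328). Neither overlapped its inputs. Counted on the 3′ part of the CDS alone, as set out below, Eif2s2 was still called and Eif1 was not (−0.59, adjusted p = 0.601 in the same test).

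The other genes lower in the resting dendritic pulldown were the cap-binding protein Eif4e2, the 4E-BP Eif4ebp1, the eIF4E transporter Eif4enif1, the helicase cofactors Eif4b and Eif4h, Eif1b, Eif5, Eif5a and the eIF3 subunits Eif3g, Eif3k and Eif3m, with log2 fold changes of −0.50 to −1.17. With a trend on CDS length removed, Eif3k turned direction to 0.13 and was not called (adjusted p = 0.725). None of the 5 eIF2B subunits was called, where 31.2% of all genes were. Pairing each pulldown with its replicate number left these counts within 1.5 times. Fits without replicates 1, 2 and 3 called 13, 9 and 0 initiation factor genes, so that none of the 16 passed in all 3 reduced fits. The share of all genes called in these reduced fits is not given here, and the counts describe the fits only. With its own input as the reference, Eif4enif1 was not called.

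In depolarized neurons the same comparison called 2 initiation factor genes higher and 6 lower of 50 (16%, where 18% of all genes were called, 11.2% higher and 6.84% lower). Eif5b was at 373, 259.7 and 259.7 CPM in the pulldowns and at 65.8, 81.8 and 114 in the inputs (lowest, median, highest), with no overlap and a log2 fold change of 1.80 (SE 0.27, adjusted p = 0.000253). It passed in all 3 fits without 1 replicate. The heme-regulated eIF2 kinase Eif2ak1 was at 70.6, 37.97 and 45.4 CPM in the pulldowns against 19.9, 28.2 and 33.8 in the inputs, a log2 fold change of 0.87 (SE 0.23, adjusted p = 0.0127). Its CDS shares 172 bases with Ankrd61 on the opposite strand, and the use of strand in counting was not given. Lower were Eif3m at −0.75 (SE 0.21, adjusted p = 0.0177), whose 27.2, 47.3 and 58.2 CPM overlapped inputs of 56.3, 74.4 and 99.1, and Eif3f at −0.64 (SE 0.19, adjusted p = 0.0243), whose 51.4, 102 and 72.7 CPM overlapped inputs of 87.1, 119 and 141. Eif2s2, Eif4e2, Eif3g and Eif3b were also lower. With the replicate number as a block, 15 were called, 4 of them higher. With the TurboID-PSD95 input alone as the reference 4 were called, and 2, 14 and 1 were called without replicates 1, 2 and 3. The share of all genes called in these alternative fits is not given here, so their counts are not a result about initiation factors. The depolarized dendritic comparison minus the resting one called no initiation factor gene and no gene at all (0% of 13005, with 342 genes and 2 initiation factor genes at an unadjusted p under 0.05). Eif1 had the smallest p there, with a difference of 1.19 on the log2 scale (SE 0.42, adjusted p = 1).

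Pan-TurboID pulldowns, which sample the whole neuron, were set against their own inputs. At rest 1 initiation factor gene was higher and 1 lower of 50 (4%, against 9.63% of all genes, 4.58% higher and 5.05% lower). Eif3l was at 219, 228 and 217 CPM in the pulldowns and 144, 145 and 115 in the inputs (log2 fold change 0.72, SE 0.21, adjusted p = 0.0399), and Eif4ebp1 at 4.50, 13.5 and 6.87 CPM against 18.8, 26.8 and 25.6 (−1.56, SE 0.39, adjusted p = 0.0228). Neither pair of groups overlapped. The block on replicate number called 10 (2 higher), and 5, 0 and 0 were called without replicates 1, 2 and 3. After depolarization 2 were higher and 4 lower (12%, against 8.9% of all genes, 5.2% higher and 3.7% lower). Eif5b was at 171, 129 and 218 CPM in the pulldowns against 92.7, 75.6 and 88.1 (1.02, SE 0.32, adjusted p = 0.0492), and Eif3l was higher by 0.68 (SE 0.22, adjusted p = 0.0477). The scanning factor Eif1ax (−1.29, SE 0.32, adjusted p = 0.0218), Eif1ad (−1.50, SE 0.42, adjusted p = 0.0317), Eif3j2 and Eif3f were lower. The block called 14 (3 higher), and 2, 0 and 0 were called without replicates 1, 2 and 3. For these blocked and reduced Pan-TurboID fits too, the share of all genes called is not given, and the counts describe the fits only. The enrichment by TurboID-PSD95 beyond that by Pan-TurboID, over both conditions, called no initiation factor gene of 50 and 1 gene of 13005 (0.00769%), with 2 initiation factor genes at an unadjusted p under 0.05. Eif2s3x had the smallest p, with 0.56 (SE 0.22, adjusted p = 1).

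Enrichment in the pulldown went with the length of the CDS. In the resting dendritic comparison Spearman's rho between CDS length and log2 fold change was 0.626 over the 50 initiation factor genes and 0.521 over all genes tested. The 22 initiation factor genes with a CDS under 1000 nt had a median log2 fold change of −0.69, against −0.69 for all genes of that length, and 20 of them were below 0. The 16 with a CDS of 1500 nt or more had a median of 0.32, against 0.30 for all genes of that length. Pan-TurboID at rest gave −0.67 against −0.60 for the short class and 0.20 against 0.24 for the long class. The 12 genes between these lengths lay lower than other genes of their length, at −0.17 against 0.00 in the resting and −0.33 against 0.00 in the depolarized dendritic comparison. In the DHPG pulldowns the medians were below those of all genes in each class, at −1.50 against −1.07, −0.33 against 0.08 and 0.40 against 0.60 from short to long. In the knockdown pulldowns they were −0.80 against −0.83, −0.21 against −0.02 and 0.20 against 0.45. Genes are not independent replicates, and the part of length in each gene's value was not tested. With a trend on CDS length removed in the fit, 3 initiation factor genes were higher and 7 lower in the resting dendritic comparison, where 10.2% of all 13005 genes were called higher and 9.65% lower. None was called in either Pan-TurboID comparison, against 2.95% of all genes at rest and 2.59% after KCl.

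In the DHPG experiment, 13 of 49 initiation factor genes were higher and 33 lower in the TurboID-PSD95 pulldowns than in their inputs (93.9%, where 79.7% of all 12259 genes were called, 40.5% higher and 39.3% lower), with a median log2 fold change of −0.58 against 0.04 over all genes. Eif5b was again among the highest, at 375, 346 and 277 CPM in the pulldowns and 108, 112 and 115 in the inputs (log2 fold change 1.58, SE 0.09, adjusted p = 1.79e-11). Eif3d, the eIF3 subunit that can itself bind caps, was at 352.4, 352.5 and 365 CPM against 196, 197 and 201 (0.85, SE 0.06, adjusted p = 1.86e-10). Its CDS shares 625 bases with Gm17638 on the opposite strand, and the use of strand in counting was not given. Lower were Eif5a at 61.3, 76.0 and 76.2 CPM against 233, 239 and 243 (−1.74, SE 0.08, adjusted p = 1.28e-12) and Eif1b at 33.7, 31.4 and 31.8 CPM against 111, 106 and 105 (−1.73, SE 0.08, adjusted p = 1.4e-12). None of the 4 overlapped. Summed neuron markers were at 9709 to 10056 CPM in these pulldowns and 10978 to 11116 in the inputs, and oligodendrocyte lineage markers at 30.7 to 37.1 and 60.2 to 67.3, and their part in the result was not tested.

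By complex, 5 of 14 eIF3 subunits were higher in the DHPG pulldowns (Eif3a, Eif3c, Eif3d, Eif3i and Eif3l) and 8 lower. Of all genes, 40.5% were called higher and 39.3% lower there. Eif3h stood at −0.02. Of the eIF2 kinases, Eif2ak1 at 1.05, Eif2ak4 at 1.21 and Eif2ak3 at 0.40 were higher. With a trend on CDS length removed, Eif3a (−0.22), Eif3c (−0.0072) and Eif2ak3 (−0.27) turned direction. Eif1 at −1.59, Eif5 at −1.74, Eif4h at −1.57 and Eif4b at −1.43 were lower. In the knockdown experiment, over both conditions, 9 of 51 were higher and 26 lower (68.6%, against 59.7% of all 12225 genes, 29.1% higher and 30.6% lower). Eif5b was at 1595 and 1490 CPM in the resting pulldowns and 867 and 1141 in the depolarized ones, against 118, 114, 93.4 and 99.1 in the inputs, a log2 fold change of 3.56 (SE 0.08, adjusted p = 6.23e-22). Eif3a, the core scaffold subunit of eIF3, was at 827 to 949 CPM against 276 to 345 (1.52, SE 0.06, adjusted p = 1.32e-16). Eif4h was at 112 to 149 CPM against 317 to 399 (−1.46, SE 0.08, adjusted p = 3.9e-14), and Eif1b had a log2 fold change of −1.64 (SE 0.11, adjusted p = 1.02e-12). Neuron markers were at 7564 to 7594 CPM in the resting and 5746 to 5860 in the depolarized knockdown pulldowns, against 9552 to 9673 and 7655 to 7821 in their inputs, and oligodendrocyte lineage markers at 96.5 to 131 and 87.9 to 112, against 189 to 197 and 190 to 216. Their part in the result was not tested. Among initiation factors, Eif5b had the largest positive log2 fold change in the TurboID-PSD95 pulldowns of all 3 experiments, with no overlap of its groups. The size of this change differed between experiments, and that difference was not tested. Eif5b was also called higher in the depolarized Pan-TurboID pulldowns. In the resting Pan-TurboID pulldowns it was at 249, 164 and 348 CPM against 118, 107 and 182 in their inputs, which overlapped, and it was not called.

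**Figure D2:**
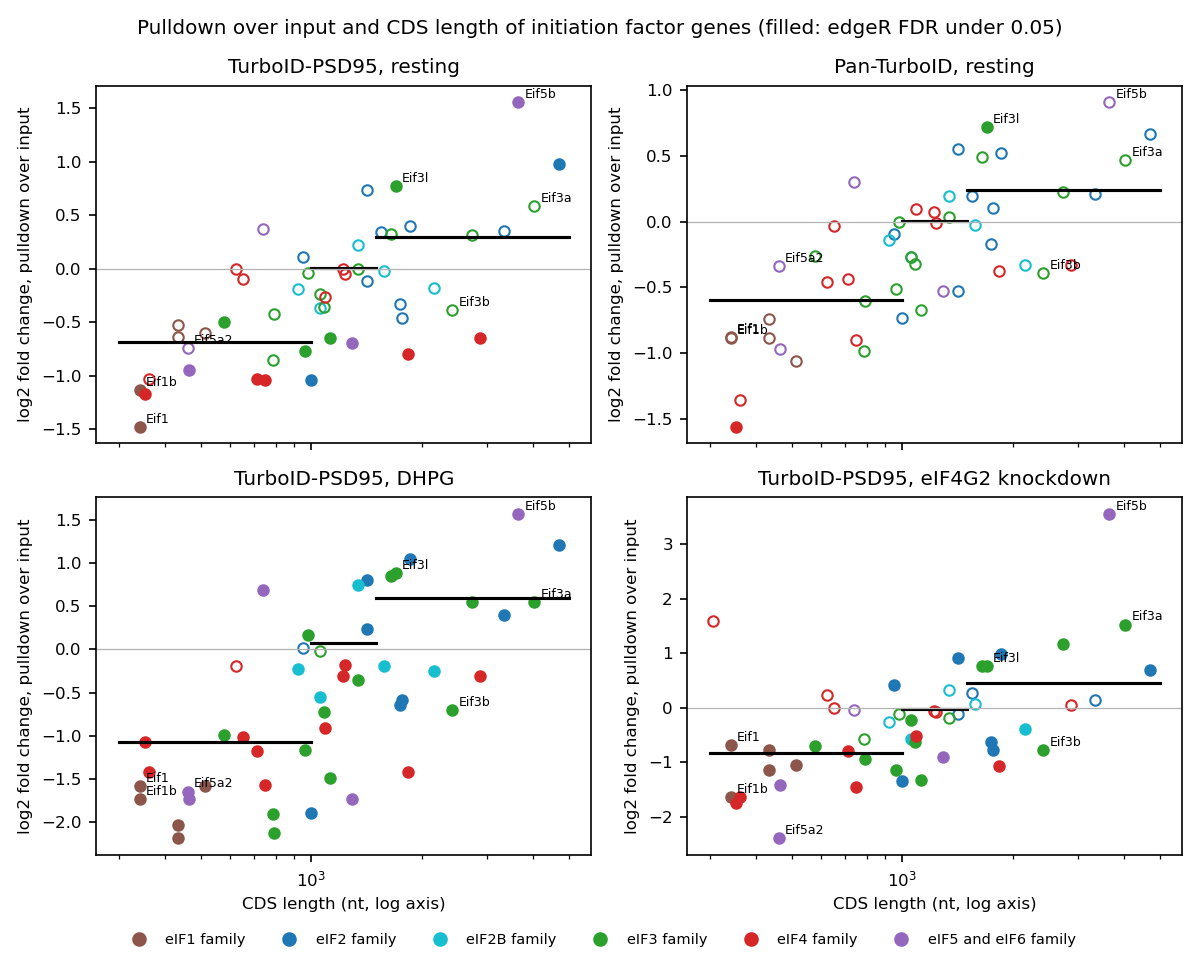
Log2 fold change of pulldown over input against CDS length (nt, log axis) for initiation factor genes in 4 comparisons, coloured by family. Filled points passed an adjusted p of 0.05 and black bars are medians of all genes in 3 length classes. Short genes such as Eif1 and Eif1b lie below 0 in each panel and Eif5b lies at or near the top.

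Footprints also lay at different places along the CDS in pulldowns and inputs. The files count each coding exon segment on its own, and 40 initiation factor genes with more than 1 segment had at least 10 counts in every library. A segment was assigned to the 5′ part of the CDS when its midpoint lay before the middle of the CDS, and otherwise to the 3′ part. In resting TurboID-PSD95 inputs the median share of CDS counts in the 5′ part was 62.0% over the 40 genes (59.3% over 7772 genes), and in the pulldowns it was 38.8% (41.9%). The share was lower in the pulldown for 36 of the 40, in 25 of them without overlap of the 3 libraries on each side, where 61.1% of all genes were lower without overlap. Pan-TurboID at rest gave 37 of 40 lower, 27 without overlap (58.4% of all genes), and DHPG 35 of 40, 30 without overlap (77.8% of all genes). This is a description that was made after the counts by exon were seen, with no test.

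Of the CDS counts of Eif5b, 54.0% ± 1.38 (SD, n = 3) lay in the 5′ part in resting TurboID-PSD95 inputs and 21.3% ± 3.49 in the pulldowns, and 45.5% ± 0.971 against 10.98% ± 0.768 after DHPG. Its coding segment 4 (670 nt, chr1:38018865-38019534, mm10) held 18.5% of its resting input counts and 4.18% of its resting pulldown counts. In the resting knockdown pulldowns that segment held 0.65%, against 22.2% in their inputs. In normalised counts, the 3′ part of Eif5b rose from 60.2, 53.7 and 71.4 CPM in resting TurboID-PSD95 inputs to 277, 155 and 519 CPM in the pulldowns, while its 5′ part was at 70.3, 66.8 and 79.6 CPM in those inputs and at 69.1, 52.4 and 119 CPM in the pulldowns. The 5′ part overlapped between the groups and the 3′ part did not. In the knockdown experiment both parts were higher in the pulldowns without overlap. There the 5′ part was at 47.0 and 60.6 CPM in resting inputs and at 184 and 151 CPM in resting pulldowns, and the 3′ part at 71.3 and 53.3 CPM and at 1411 and 1338 CPM. Eif3d went from 71.3% ± 1.30 to 32.6% ± 5.48 in the 5′ part, and Eif3l from 54.9% ± 2.64 to 35.8% ± 2.30. Eif4b was an exception at 55.1% ± 0.252 in inputs and 54.2% ± 2.27 in pulldowns. Counting the 3′ part alone, the resting dendritic comparison called 20 of 48 initiation factor genes, 11 higher and 9 lower, where 15.3% of the 11034 genes tested were called higher and 13.1% lower. Of the genes called on the whole CDS, Eif1, Eif3k, Eif3m, Eif4e2 and Eif5a were not called on the 3′ part, and the others were. In the depolarized dendritic comparison Eif5b, Eif2ak1 and Eif2s2 were still called, and Eif3b, Eif3f, Eif3g, Eif3m and Eif4e2 were not. Pan-TurboID at rest called none on the 3′ part, against 2.5% of all genes.

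**Figure D3:**
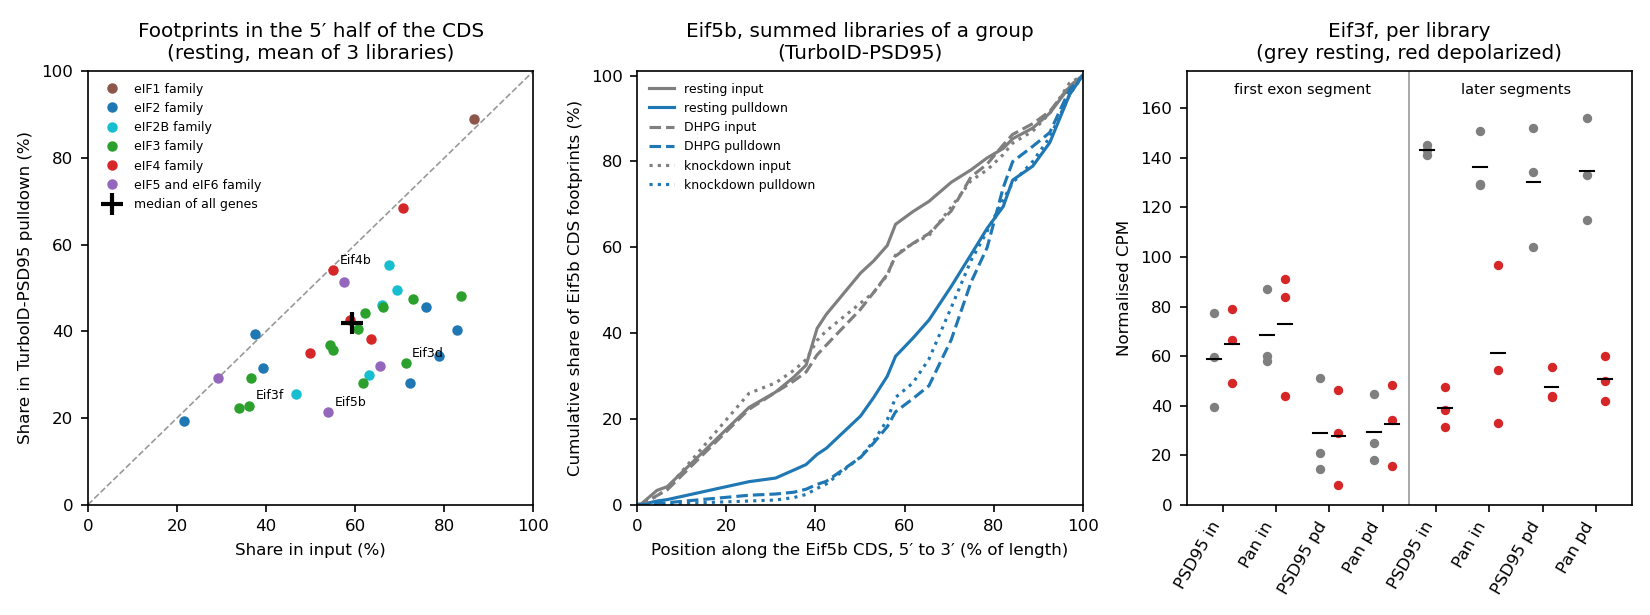
Position of footprints along the CDS. Left, share of CDS counts in the 5′ part in resting TurboID-PSD95 inputs (x, %) and pulldowns (y, %) for the 34 initiation factor genes with 100 counts in every group, of which 31 lie below the dashed line of equal share. Middle, cumulative share of Eif5b CDS counts along its length, where the pulldown curves run below the input curves of their experiment along nearly the whole length. Right, Eif3f CPM in its first coding segment and in its later segments per library, with bars for means (in: input, pd: pulldown): the later segments do not overlap between rest and KCl in any of the 4 pairs of groups and the first segment does.

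Depolarization was compared with rest in the 6 inputs against 6 inputs, in each kind of pulldown, and in the knockdown inputs and pulldowns. In the inputs 4 initiation factor genes were higher and 6 lower of 50 (20%, against 15.3% of all genes, 6.33% higher and 9.02% lower), with a median log2 fold change of 0.00 against −0.01. In TurboID-PSD95 pulldowns 4 were higher and 2 lower (12%, against 6.6% of all genes, 3.31% higher and 3.28% lower), and in Pan-TurboID pulldowns 3 and 3 (12%, against 5.03%, 1.87% higher and 3.16% lower). In the knockdown inputs 3 were higher and 5 lower of 51 (15.7%, against 19.3%, 8.92% higher and 10.4% lower), and in the knockdown pulldowns 6 and 4 (19.6%, against 22.2%, 10.2% higher and 12% lower). Eif2ak3, Eif4a3 and Eif4enif1 were called in all 5 comparisons, Eif1b in 4 and Eif3f in 4. The inputs are the source of the pulldowns, so the comparisons are not independent of each other. Summed neuron markers moved with KCl in the TurboID-PSD95 libraries, at 7604 to 8874 CPM in depolarized and 9105 to 9991 in resting inputs, and at 6972 to 7808 and 8352 to 9147 in the pulldowns. In the knockdown experiment they lay at 7655 to 7821 and 9552 to 9673 CPM in inputs and at 5746 to 5860 and 7564 to 7594 in pulldowns. The Pan-TurboID ranges overlapped, both in inputs and in pulldowns. Summed astrocyte markers were at 855 to 883 CPM in depolarized and 674 to 687 in resting knockdown inputs, and at 717 to 950 and 528 to 678 in the knockdown pulldowns. Summed microglia markers were at 17.2 to 19.7 CPM in depolarized and 10.3 to 13.5 in resting knockdown pulldowns. The part of these markers in the results was not tested.

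The clearest rise was that of Eif2ak3, which encodes PERK, the eIF2 kinase of the endoplasmic reticulum. It was at 45.9, 59.8 and 74.9 CPM (lowest, median, highest) in the 6 depolarized inputs and at 18.1, 26.4 and 33.6 in the 6 resting inputs, with no overlap and a log2 fold change of 1.17 (SE 0.17, adjusted p = 1.41e-05). In TurboID-PSD95 pulldowns it was at 82.7, 62.9 and 66.5 CPM against 30.8, 38.5 and 31.7 (1.06, SE 0.23, adjusted p = 0.00621), and in Pan-TurboID pulldowns at 70.8, 63.1 and 76.1 against 38.8, 30.3 and 29.4 (1.09, SE 0.23, adjusted p = 0.00461). Again no groups overlapped. In the knockdown inputs it was at 51.2 and 44.5 CPM against 23.6 and 19.1 (1.17, SE 0.23, adjusted p = 0.000577), and it also rose in the knockdown pulldowns (0.90, adjusted p = 0.0095). The other eIF2 kinases were not called in the inputs, with log2 fold changes of −0.22 for Eif2ak1, 0.02 for Eif2ak2 and −0.35 for Eif2ak4. Eif2ak3 overlaps the gene model Gm43292 on the opposite strand over 485 bases, and the use of strand in counting was not given.

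Eif4a3 and the start codon selection factor Eif1b also rose. Eif4a3, the helicase of the exon junction complex, was at 119, 129 and 145 CPM in depolarized inputs against 79.8, 84.1 and 103 in resting ones (log2 fold change 0.57, SE 0.11, adjusted p = 0.000808). The pulldowns gave 0.56 (adjusted p = 0.0332) for TurboID-PSD95 and 0.54 (adjusted p = 0.0423) for Pan-TurboID, and the knockdown pulldowns rose from 82.2 and 79.3 to 138 and 125 CPM (0.70, SE 0.15, adjusted p = 0.000782). Eif1b rose in the inputs by 0.80 (SE 0.25, adjusted p = 0.031). In the knockdown inputs it rose from 97.5 and 87.7 to 234 and 226 CPM (1.31, SE 0.13, adjusted p = 4.6e-08), and in the knockdown pulldowns from 33.5 and 32.3 to 65.7 and 67.1 (1.01, SE 0.17, adjusted p = 6.63e-05). On the 3′ part of the CDS alone, Eif1b was called in neither, at 0.68 (adjusted p = 0.285) in these inputs and 0.90 (adjusted p = 0.183) in these pulldowns. Its TurboID-PSD95 pulldowns, at 24.2, 83.6 and 70.2 CPM after KCl and 23.8, 29.6 and 18.05 at rest, overlapped although the test passed (1.32, SE 0.37, adjusted p = 0.0305). Eif1 rose in the TurboID-PSD95 pulldowns, from 8.60, 22.3 and 9.27 to 25.2, 62.0 and 33.4 CPM (1.60, SE 0.35, adjusted p = 0.00565), and stood at 0.40 in the inputs (adjusted p = 0.259).

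Among the cap-binding group, Eif4enif1, which encodes the eIF4E transporter 4E-T, fell in all 5 comparisons. It was at 24.7, 30.0 and 34.6 CPM (lowest, median, highest) in depolarized inputs against 53.3, 61.1 and 68.6 in resting inputs (log2 fold change −1.04, SE 0.17, adjusted p = 8.71e-05). In Pan-TurboID pulldowns it was at 19.1, 20.7 and 25.9 CPM against 44.6, 48.5 and 57.2 (−1.20, SE 0.24, adjusted p = 0.00281), and in knockdown pulldowns at 19.2 and 23.3 against 60.4 and 63.3 (−1.54, SE 0.25, adjusted p = 4.16e-05). The groups were apart each time. In TurboID-PSD95 pulldowns it was at 28.2, 24.8 and 13.6 CPM against 32.0, 39.2 and 48.3 (−0.84, SE 0.25, adjusted p = 0.0385). Eif4e stood at −0.23, Eif4ebp2 at 0.04 and Eif4ebp1 at 0.61 (adjusted p = 0.12) in the inputs, none of them called. Eif4ebp1 was called higher in Pan-TurboID pulldowns at 12.4, 21.1 and 31.9 CPM, with its resting pulldowns at 4.50, 13.5 and 6.87 overlapping (1.45, SE 0.39, adjusted p = 0.0271). It was also called in knockdown pulldowns at 10.4 and 11.2 against 0 and 5.76 CPM, but not by DESeq2.

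Further falls included Eif2d and eIF3 subunits. Eif2d, which can deliver tRNA to the ribosome without GTP, was at 4.37, 6.03 and 10.7 CPM in depolarized inputs against 16.1, 18.8 and 21.5 (log2 fold change −1.47, SE 0.26, adjusted p = 0.000225). It also fell in Pan-TurboID pulldowns, from 19.7, 21.1 and 20.6 to 2.48, 6.78 and 8.11 CPM (−1.77, SE 0.36, adjusted p = 0.00333), and in knockdown pulldowns, from 16.5 and 23.0 to 4.00 and 4.38 (−2.21, SE 0.44, adjusted p = 0.00051). No groups overlapped. Of the 14 eIF3 subunits, Eif3f and Eif3b (−0.47, adjusted p = 0.0347) fell in the inputs. Eif3f was at 87.1, 119 and 141 CPM against 181, 208 and 221 (−0.78, SE 0.15, adjusted p = 0.000688). It fell in TurboID-PSD95 pulldowns from 118, 186 and 173 to 51.4, 102 and 72.7 CPM (−1.06, SE 0.22, adjusted p = 0.00317), in Pan-TurboID pulldowns by −0.97 (SE 0.22, adjusted p = 0.00719) and in knockdown inputs from 269.6 and 260.1 to 198 and 180.4 (−0.48, SE 0.11, adjusted p = 0.00231). In the knockdown inputs Eif3b (−0.41, SE 0.10, adjusted p = 0.00412), Eif3l (−0.42) and Eif4a2 (−0.45) also fell. Eif5b fell in the knockdown pulldowns (−0.62, SE 0.10, adjusted p = 3.53e-05), and its call in the KCl inputs (−0.66, adjusted p = 0.0497) was lost with RLE size factors and without the filter on low counts. Eif2s2 fell and Eif3e (0.41, adjusted p = 0.0491) and Eif3k (0.53, adjusted p = 0.0359) rose in the knockdown pulldowns.

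**Figure D4:**
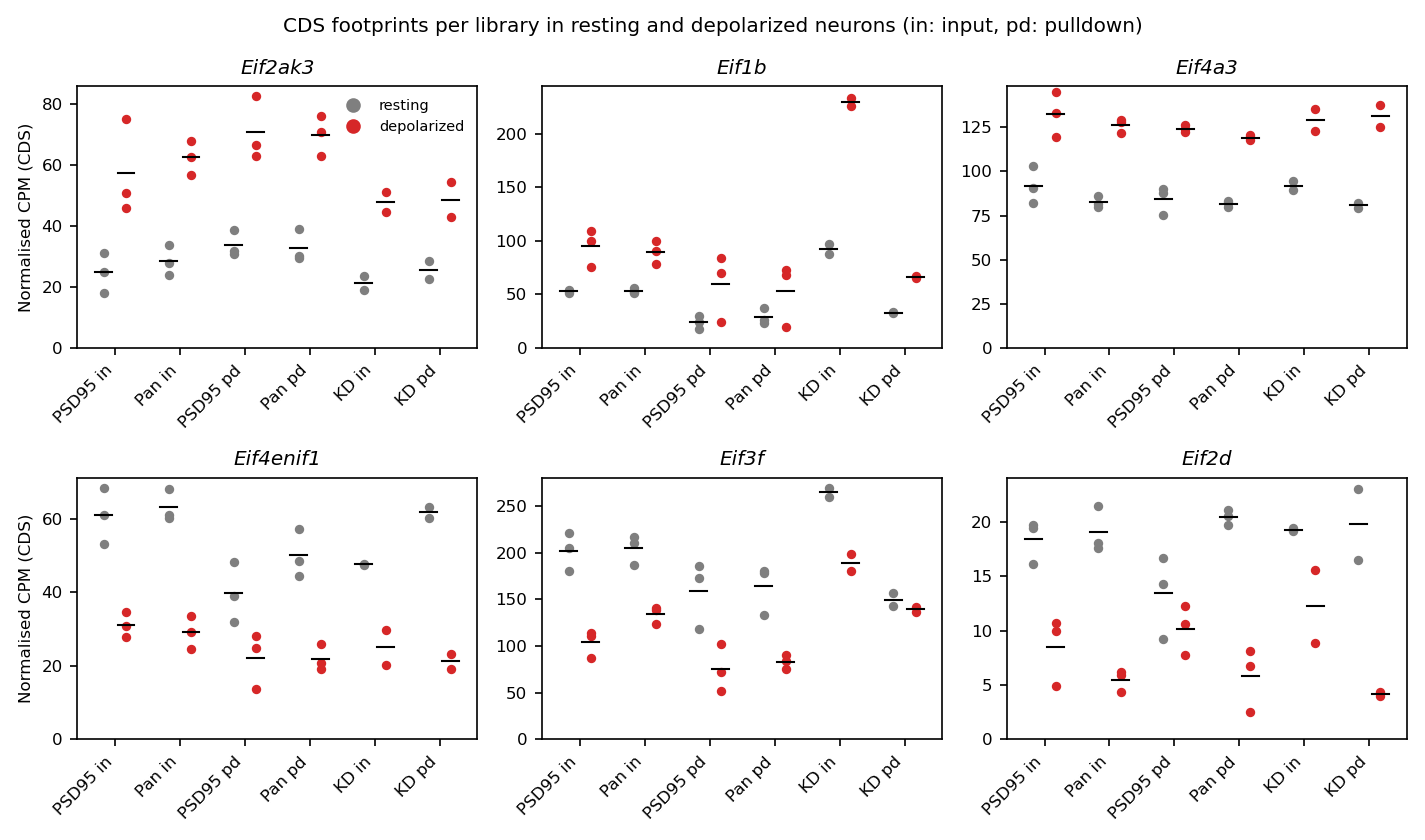
Normalised CDS CPM of 6 initiation factor genes in every library of the KCl and knockdown (KD) experiments, as inputs (in) and pulldowns (pd), with resting libraries in grey, depolarized ones in red and bars for group means. Eif2ak3 is higher and Eif4enif1 lower in all depolarized libraries of each pair of groups.

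The robustness of these calls differed. In the inputs, 8, 6 and 4 initiation factor genes were called without replicates 1, 2 and 3, and Eif2ak3, Eif2d and Eif4enif1 passed in all 3 reduced fits. In the TurboID-PSD95 pulldowns 6, 2 and 0 were called without replicates 1, 2 and 3, in the Pan-TurboID pulldowns 6, 1 and 0, and no gene passed in all 3. The share of all genes called in these reduced fits is not given here, and their counts describe the fits only. Leaving out single libraries, Eif1b and Eif2ak3 passed in all 8 fits of the knockdown inputs, and Eif1b, Eif2d, Eif4a3, Eif4enif1 and Eif5b in all 8 of the knockdown pulldowns. Eif1ad, called higher in the inputs (0.83, SE 0.28, adjusted p = 0.0462), was lost without the filter on low counts.

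The fall of Eif3f was unequal along its CDS. Its first coding segment (chr7:108934432-108934807, 376 nt, mm10) stood at 58.8 ± 19.1 CPM (mean ± SD of 3 libraries) in TurboID-PSD95 inputs at rest and at 64.8 ± 15.1 CPM after KCl, whereas its 7 later segments together went from 143 ± 1.91 to 39.1 ± 8.22 CPM. The later segments were at 130.2 ± 24.3 CPM in resting and 47.6 ± 6.86 in depolarized TurboID-PSD95 pulldowns, and at 135 ± 20.6 and 50.5 ± 9.02 in the Pan-TurboID pulldowns. The first segment there was at 28.9 ± 19.7 and 27.7 ± 19.1 CPM, and at 29.1 ± 13.7 and 32.7 ± 16.5. In all 4 pairs of groups the later segments did not overlap and the first segment did. In the knockdown inputs the first segment was at 67.1 and 69.5 CPM at rest and 71.3 and 74.5 after KCl, and the later segments at 203 and 191 and at 127 and 106. In the knockdown pulldowns, where Eif3f was not called, the later segments were at 134 and 115 CPM at rest and 111 and 110.4 after KCl. Fitted on the 3′ part alone, Eif3f fell by 1.31 on the log2 scale in the inputs (adjusted p = 1.05e-05), by 1.30 in TurboID-PSD95 pulldowns (adjusted p = 0.00326) and by 1.40 in Pan-TurboID pulldowns (adjusted p = 0.00138). The split was chosen after the counts by exon were seen, so these p-values are not an independent test of the uneven fall.

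Across initiation factors, the share of CDS counts in the 5′ part was higher after KCl in TurboID-PSD95 inputs for 36 of 40 genes, by a median of 8.28 percentage points, in 13 of them without overlap, where 22.5% of all 7772 genes were higher without overlap by the same measure and the median over all genes was 4.97 points. In Pan-TurboID inputs it was higher for 28 of 40, by 6.46 points (10 without overlap, against 15.2% of all genes). Eif4a3 rose more in its first segment, from 31.0 ± 4.71 to 64.3 ± 9.40 CPM in TurboID-PSD95 inputs, than in its later ones, at 60.9 ± 6.39 and 68.1 ± 3.47 CPM. Eif2ak3 rose in both, from 10.8 ± 4.22 to 25.01 ± 5.00 in the first segment and from 13.9 ± 4.54 to 32.3 ± 10.8 in the later ones. On the 3′ part alone, Eif2ak3 (1.28, adjusted p = 0.00158), Eif4a3 (0.56, adjusted p = 0.03), Eif2d (−1.19, adjusted p = 0.021) and Eif4enif1 (−1.52, adjusted p = 0.000199) were still called in the inputs, and Eif1b, Eif1ad, Eif3b, Eif4b and Eif5b were not. In TurboID-PSD95 pulldowns only Eif3f of the 6 was still called, with Eif2ak3 at 0.53 (adjusted p = 0.494), and in Pan-TurboID pulldowns only Eif3f and Eif4enif1 of the 6, with Eif2ak3 at 1.18 (adjusted p = 0.0709).

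Of the 4 initiation factors listed as known TOP mRNAs, 2 fell in the inputs and none rose, with a median log2 fold change of −0.45, where 6.33% of all genes were called higher and 9.02% lower. They were Eif4b (−0.74, SE 0.17, adjusted p = 0.00304) and Eif3f, while Eif3e stood at 0.11 and Eif3h at −0.16, neither called. The search of annotated starts found no TOP stretch at Eif4b and had no matched start for Eif3e and Eif3h. Eif2s3x, which has a TOP stretch at its start, stood at 0.24 (adjusted p = 0.339). The 8 cytosolic elongation factors, most of which are TOP mRNAs too, had 3 lower and none higher in the inputs (9.02% and 6.33% of all genes), with a median log2 fold change of −0.45. They were Eef1a1 (−1.23), Eef1a2 (−0.84) and Eef2 (−1.12). Of 20 tested partners of initiation that lack the Eif symbol, 2 rose and 5 fell in the inputs (6.33% and 9.02% of all genes), with a median of 0.00. Ppp1r15a, the stress-induced subunit of the phosphatase that restores eIF2, rose by 2.03 (SE 0.24, adjusted p = 1.05e-06). The poly(A)-binding protein gene Pabpc1 fell by 1.84 on the log2 scale (SE 0.16, adjusted p = 8.19e-09), and Larp1, which binds TOP mRNAs, fell as well. None of the 5 eIF2B subunits was called in any of the 5 KCl comparisons, which called between 5.03% and 22.2% of all genes.

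DHPG inputs were set against resting TurboID-PSD95 inputs of the KCl experiment, with the limit that treatment and experiment cannot be told apart. Markers of other cells moved with this contrast. Summed astrocyte markers lay at 236 to 248 CPM in DHPG inputs and 646 to 1193 in the resting inputs, and summed oligodendrocyte lineage markers at 60.2 to 67.3 and 257 to 574, and their part in the result was not tested. Of 50 initiation factor genes 10 were higher and 4 lower (28%, against 32.8% of 12789 genes, 16.3% higher and 16.5% lower). Eif3l was at 219, 241 and 244 CPM against 125, 136 and 121 (log2 fold change 0.89, SE 0.10, adjusted p = 9.21e-06), and Eif1b at 118, 113.4 and 113.2 against 53.3, 50.5 and 48.3 (1.18, SE 0.14, adjusted p = 1.2e-05). Eif4enif1 was at 32.1, 32.7 and 29.4 CPM against 52.1, 58.1 and 65.0 (−0.89, SE 0.15, adjusted p = 0.000349), and Eif4b had −0.40 (SE 0.12, adjusted p = 0.0147). Eif1b, Eif3c, Eif3l, Eif4enif1 and Eif6 passed in all 3 reduced fits. Of the fixed immediate early genes, 2 were higher and 8 lower in these DHPG inputs. The knockdown inputs against TurboID-PSD95 inputs without siRNA, over both conditions, had 4 of 51 higher and none lower (7.84%, against 15.9% of 13182 genes, 8% higher and 7.9% lower). They were Eif1b (1.08, SE 0.21, adjusted p = 0.00094), Eif3l (0.70, SE 0.15, adjusted p = 0.00282), Eif3f (0.67, adjusted p = 0.00636) and Eif4a1 (0.51, adjusted p = 0.0208). On the 3′ part of the CDS alone, Eif1b stood at 0.10 (adjusted p = 0.896) and was not called, while Eif3l, Eif3f and Eif4a1 still were. Within rest and within KCl the knockdown inputs of Eif1b and Eif3f lay above the others without overlap (Eif1b at 100.4 and 89.9 CPM against 50.8 to 54.8 at rest), and the ranges overlapped over both conditions together. Eif3l, at 170.1 to 251.1 CPM in knockdown inputs and 106 to 164 in the others, and Eif4a1, at 172 to 195 and 100.2 to 157 CPM, did not overlap over both conditions. None of the 4 passed in all 3 fits without 1 replicate number. Summed microglia markers lay at 13.2 to 17.2 CPM at rest and 15.8 to 25.7 after KCl in knockdown inputs, against 1.30 to 3.82 and 1.28 to 5.74 in the inputs without siRNA. Oligodendrocyte lineage markers lay at 189 to 197 CPM in resting knockdown inputs and 257 to 574 in the others, and astrocyte markers after KCl at 855 to 883 and 718 to 767. The part of these markers in the result was not tested.

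Footprints in the 5′ UTR were read as a share of 5′ UTR plus CDS counts, for 45 initiation factor genes and 8813 genes with at least 10 such counts in every library. Counting 5′ ends places ribosomes on the first codons in the 5′ UTR, so that the share holds some initiating ribosomes. Its median was 14.7% in resting TurboID-PSD95 inputs (19.2% over all genes) and 5.56% in their pulldowns (7.21%). The highest shares were those of Eif1ax at 82.1% ± 6.6 (SD, n = 3), Eif1ad at 84.1% ± 5.5 and Eif1a at 78.6%. The value of Eif1a holds for its longest transcript, with a CDS of 435 nt. Its transcript with the highest count has a CDS of 765 nt. With that transcript the resting input level of Eif1a was 59.0 CPM per kb in place of 23.8, so its share depends on the transcript counted. Eif6, which keeps the large subunit from joining early, was at 64.7% ± 5.9, Eif1b at 60.2% ± 3.6 and Eif5 at 54.8% ± 6.0, and Eif1 at 38.8% ± 3.4. In the pulldowns Eif6 was at 31.8% ± 13.1, Eif5 at 37.6% ± 1.9 and Eif1ax at 65.2% ± 16.6. In Eif5, the exon of 194 nt with the upstream ATG at base 397, shown above (chr12:111538355-111538548, mm10), held 2916 counts over the 6 resting inputs, which is 66.8% of its 5′ UTR counts. That ATG lies near the 3′ end of the exon, so that most of the exon lies before it. The frame of 108 codons from the upstream ATG at base 84 also runs through this exon. The next exon held 1421 counts (32.5%), and counts were not assigned to a frame.

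After KCl the 5′ UTR share was higher in TurboID-PSD95 inputs for 36 of the 45 genes, with a median change of 3.34 percentage points, where 70.2% of all genes were higher with a median of 2.62 points. Pan-TurboID inputs gave 26 of 45 (54.8% of all genes), the TurboID-PSD95 pulldowns 35 of 45 (73.9%) and the Pan-TurboID pulldowns 28 of 45 (61.5%). The knockdown inputs gave 36 of 45 (74.6%) and the knockdown pulldowns 19 of 45 (51.3%), with a median change of −0.47 points in the latter. Without overlap of the libraries, the share was higher for 7 of 45 genes in TurboID-PSD95 inputs (19.1% of all genes), 10 in Pan-TurboID inputs (9.09%), 6 in TurboID-PSD95 pulldowns (8.69%), 2 in Pan-TurboID pulldowns (7.06%), 25 in knockdown inputs (49.8%) and 8 in knockdown pulldowns (20.0%). Eif3f went from 27.5% ± 4.7 to 43.9% ± 5.8 and Eif5 from 54.8% ± 6.0 to 65.1% ± 6.1 in TurboID-PSD95 inputs. The shares of Eif5 overlapped, at 50.1%, 52.7% and 61.6% at rest and 71.9%, 60.02% and 63.5% after KCl. The 5′ UTR counts of Eif3f were at 59.6, 108 and 67.3 CPM at rest and 59.8, 117 and 74.4 after KCl in the same inputs and overlapped, while its CDS counts were lower after KCl. As the 5′ UTR of Eif3f is 15 nt long, these counts lie within 15 nt of its start codon, where 5′ ends of initiating ribosomes fall. In the test of 5′ UTR counts scaled by CDS library sizes, none of 46 initiation factor genes was called in the inputs (0.434% of 10144 genes were, with 2 initiation factor genes at an unadjusted p under 0.05) and none in the TurboID-PSD95 pulldowns (0.286% of genes, with 9 at an unadjusted p under 0.05). The smallest p in the pulldowns was that of Eif2ak3, at 5.04, 12.5 and 8.66 CPM of 5′ UTR counts after KCl and 1.32, 1.52 and 2.44 at rest, a log2 fold change of 2.41 (SE 0.71, adjusted p = 0.14). Its groups did not overlap, and 2 genes were called with the replicate number as a block, Eif2ak3 among them at an adjusted p of 0.0312. In the inputs it was that of Eif1b (0.87, adjusted p = 0.766).

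**Figure D5:**
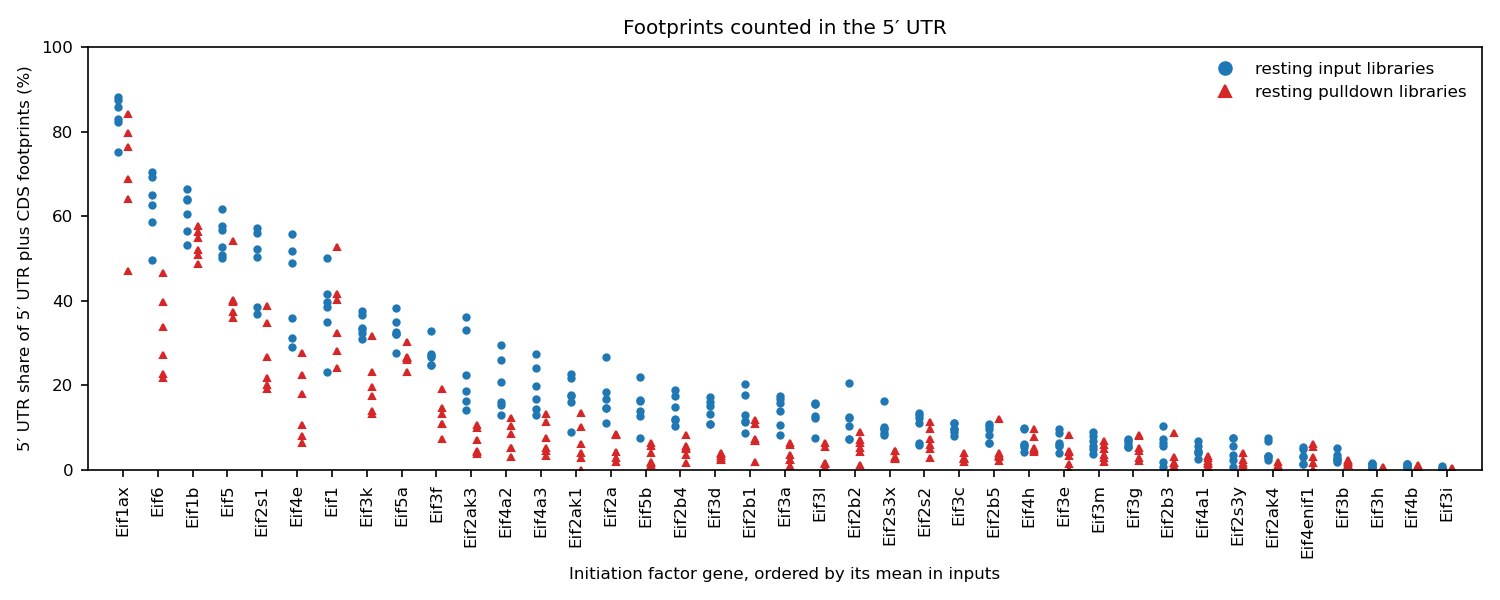
Share of 5′ UTR plus CDS counts that fell in the 5′ UTR (%) for the 39 initiation factor genes with at least 100 such counts in every group, in the 6 resting inputs (circles) and 6 resting pulldowns (triangles) of both baits. Eif1ax, Eif6, Eif1b and Eif5 stand highest, and most genes have lower shares in the pulldowns.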

How the data were processed

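Footprints were sequenced by the authors from 38 libraries in 14 groups, 10 of 3 libraries and 4 of 2. Per the labels and the study's methods, reads were aligned to mm10 with Rsubread after removal of ribosomal reads, and the deposited counts are whole-number 5′ ends per exon segment made with plastid, with no offset to the ribosomal site. Unique molecular identifiers were trimmed from the reads. File names mark duplicates as removed, and whether the identifiers were used for that was not given. Whether strand was used, and how reads with several matches were handled, was not given in the sources used here.

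Segment counts were summed for the longest transcript of each gene. CDS counts were fitted with edgeR 4.0.16 in R 4.3.3 (TMM factors, filterByExpr, glmQLFit and glmQLFTest), separately for each experiment and, for the comparisons across experiments, for the libraries they need. The 5′ UTR counts used the CDS library sizes. Scripts ran in Python 3.11.15, and the fits were tested on simulated data. Library totals were 5906281 to 35643247 counts. Intervals and tests cover the libraries as given. The main fits had no replicate block. The methods state that resting and activated samples of a replicate were processed together, so that numbers pair within an experiment. Deviations of same-numbered libraries correlated at a median of 0.142 in the KCl experiment (46 of 84 pairs over 0.1), against −0.107 for other pairs. Alternatives were DESeq2 1.42.0, the likelihood ratio test, other scalings, filters, references and transcripts, a length trend, the block, and leaving out libraries.

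Every initiation factor gene called could be named, up to 15 per direction, with full statistics for the 2 of smallest p in each direction, and some genes were named whatever their values. The members and lists were chosen with earlier results of these data known. Eif4e1b was tested nowhere and Eif4ebp3 only in the knockdown fits.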

Additional observations from a re-analysis of the deposited data

Results flagged for a closer look

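Some genes stood on opposite sides of 0 in every replicate under like contrasts. One side of each pair did not pass the test of edgeR, and the difference was not tested. For pulldown over input, Eif2s3x stood at −0.53 on the log2 scale with Pan-TurboID at rest (adjusted p = 0.112) and at −0.61 after depolarization (adjusted p = 0.0729), against 0.23 in the DHPG experiment (adjusted p = 0.00741). For depolarization over rest, Eif3e stood at −0.28 in TurboID-PSD95 pulldowns (adjusted p = 0.418) and at −0.16 in knockdown inputs (adjusted p = 0.495), against 0.41 in knockdown pulldowns (adjusted p = 0.0491). Eif3k stood at −0.35 in knockdown inputs (adjusted p = 0.138) and 0.53 in knockdown pulldowns (adjusted p = 0.0359), and Eif3l at −0.42 (adjusted p = 0.00472) and 0.23 (adjusted p = 0.115).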

How the results depend on the processing

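Of the values of single genes under an alternative, 1809 kept their direction and side of the threshold, 314 kept the direction but were no longer called, 5 became called and 13 reversed. With a CDS length trend removed, the reversed values were 0.13 for Eif3k in the resting dendritic comparison, −0.27 for Eif2ak3, 0.17 for Eif2b1, −0.22 for Eif3a, −0.0072 for Eif3c and 0.23 for Eif4ebp1 in the DHPG pulldowns, and 0.52 for Eif1, 0.25 for Eif1ax, −0.045 for Eif2ak4 and 0.082 for Eif3k in the knockdown pulldowns. With segments of the 3′ part of the CDS alone, an alternative chosen after seeing the data, they were 0.23 for Eif2b1 and 0.28 for Eif4a3 after DHPG and −0.14 for Eif2s1 in the knockdown pulldowns. The cause was not tested.

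The count of called genes moved as follows. Shares of all genes called in the same alternative fits are not given here, so these counts are not a result about initiation factors. The resting dendritic comparison gave 10 with the length trend removed. The depolarized one gave 14 with DESeq2, 15 with the replicate block and 4 with the TurboID-PSD95 input alone. Resting Pan-TurboID pulldowns gave 7 with the likelihood ratio test, 9 with DESeq2, 10 with the block and 0 both with the length trend removed and in the 3′ part. Depolarized Pan-TurboID pulldowns gave 13 with DESeq2, 3 with no filter, 14 with the block and 0 with the length trend removed. The 3′ part gave 2 and 3 in the KCl comparisons of TurboID-PSD95 and Pan-TurboID pulldowns, 6 in knockdown pulldowns and 9 in knockdown against other inputs. For the 5′ UTR in TurboID-PSD95 pulldowns, the likelihood ratio test gave 1, DESeq2 1 and the block 2, and the median was −0.13 with 5′ UTR library sizes. The block moved no other count by over 1.5 times.

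Leaving out 1 replicate gave 0 to 13 in the resting and 1 to 14 in the depolarized dendritic comparison, 0 to 5 and 0 to 2 for Pan-TurboID, 4 to 8 in KCl inputs, 0 to 6 in each kind of KCl pulldown, 40 to 46 for DHPG, 31 to 35 for knockdown pulldowns, 3 to 15 and 7 to 12 for KCl in knockdown inputs and pulldowns, 8 to 9 and 0 to 4 across experiments, and 0 to 1 and 0 to 2 in the 5′ UTR. For the fits within the knockdown experiment, leaving out a replicate number was not run, and each of the 8 libraries was left out in its place. The shares of all genes called in these reduced fits are not given here either, and the counts describe the fits only.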
